A study of Mus musculus with 18 samples.

Results

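The 39 genes described here encode chaperones of the endoplasmic reticulum (ER), cytosol and mitochondria of mouse macrophages, and other proteins linked to them. They were chosen by name, 21 as genes of the ER unfolded protein response (Hspa5, Hsp90b1, Dnajb9, Dnajb11, Dnajc3, Pdia3, Pdia4, Pdia6, Calr, Canx, Sdf2l1, Creld2, Manf, Hyou1, Xbp1, Edem1, Sel1l, Syvn1, Sec61b, Sec24d and Ssr1) and 18 as heat shock genes (Hspa1a, Hspa1b, Hspa8, Hsph1, Hsp90aa1, Hsp90ab1, Dnaja1, Dnajb1, Dnajb4, Hspb1, Hspd1, Hspe1, Bag3, Chordc1, Ahsa1, Cacybp, Hspa4l and Stip1). All 39 were found among the 24052 genes of both count tables. All 21 ER genes and 17 of the 18 heat shock genes passed the filter on low counts. The exception was Hspb1, a small heat shock protein, with 8 counts in the vehicle group, 21 with dimethyl itaconate, 5 with LPS and 16 with both.

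Proteins that enter the ER are folded by BiP (Hspa5), GRP94 (Hsp90b1), calreticulin and protein disulfide isomerases. When unfolded protein accumulates there, the sensors IRE1, PERK and ATF6 raise the genes of this machinery through XBP1, ATF4 and cleaved ATF6, which is the unfolded protein response. In the cytosol, heat, oxidants and electrophiles release heat shock factor 1 from its chaperones, and it raises HSP70, HSP40 and HSP90 genes. Macrophages stimulated with LPS make large amounts of secreted protein, and esters of itaconate can react with cysteines.

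The RNA came from bone marrow-derived macrophages of C57BL/6 background that had matured for 7 days in 20 ng/ml M-CSF. In experiment 1, wild-type cells received vehicle or 0.25 mM dimethyl itaconate (DI, a methyl ester of itaconate) for 12 h, then either no stimulus or 100 ng/ml LPS for 4 h, which gave 4 groups (vehicle, DI, LPS, and DI plus LPS) of 3 libraries. In experiment 2, wild-type and Irg1-/- cells, the latter without the enzyme that makes itaconate (Irg1 is now named Acod1), received interferon gamma at 50 ng/ml together with LPS at 100 ng/ml. Stimulation lasted 24 h, with 3 libraries per genotype and no unstimulated group. The labels do not say whether replicates were separate animals or cultures, or how the knockout was made, so p-values measure the spread between these libraries, which may be technical.

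Libraries held 955718 to 7629669 counts. LPS replicate 3 was the shallowest, and 28.5% of the genes tested were at 0 there, against 7.42% and 12.4% in the other LPS libraries and at most 2.77% elsewhere in experiment 1. Of the members tested, 5 (Sdf2l1, Sec61b, Sec24d, Dnajb1 and Chordc1) were at 0 in that library, so fold changes without it are also given for the members called in comparisons that use the LPS group, and the calls in the surrounding gene lists are counted without it. All 8 macrophage markers searched were present in each group, and their summed level was 7519 to 10535 CPM in vehicle (counts scaled to a common library size), 3460 to 5051 with DI, 2951 to 3888 with LPS and 3414 to 4618 with both. These sums were scaled by library totals. For LPS over vehicle this moved the median log2 change of all genes by −0.93 relative to the scaling used for the fold changes below. The size of the marker differences therefore depends on the scaling. In bulk RNA, fewer cells of a type and less RNA per cell cannot be told apart. Neutrophil markers summed to 350 to 517 CPM in vehicle and 150 to 338 in the treated groups of experiment 1, with Mpo at 0 in every LPS library with or without DI. In experiment 2 they summed to 9.1 to 16.5 CPM, and macrophage markers to 2092 to 2738 CPM. Dendritic cell markers reached at most 22.7 CPM, stromal markers 77.6 CPM and T, B and NK cell markers 1.35 CPM in any library. The part of these markers in the results below was not tested.

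The 2 lists are known for different elements in their promoters, which are printed first to show what each list shares in sequence. RefSeq windows of GRCm38.p6, from 250 bases before to 50 after each gene's start, were at hand for 34 of the 39 members, all except Manf, Hyou1, Hspa8, Hsp90aa1 and Hsp90ab1. The ER stress response element (ERSE), searched on both strands as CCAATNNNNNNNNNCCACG, was in 8 of 19 ER genes with a window (42.1%), in 0 of 15 heat shock genes and in 0.137% of the 27025 genes with a window. The 9 matches follow 5′ to 3′ on the strand of the match, with the CCAAT and CCACG ends in capitals.
Hspa5 (chr2:34772025-34772043, plus strand): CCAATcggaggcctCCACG
Calr (chr8:84847075-84847093, plus strand): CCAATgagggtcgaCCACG
Hsp90b1, distal (chr10:86705638-86705656, minus strand): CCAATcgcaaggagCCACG
Hsp90b1, proximal (chr10:86705533-86705551, plus strand): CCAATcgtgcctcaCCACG
Canx (chr11:50325800-50325818, minus strand): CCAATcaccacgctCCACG
Pdia6 (chr12:17266491-17266509, plus strand): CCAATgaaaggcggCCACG
Dnajc3 (chr14:118937827-118937845, plus strand): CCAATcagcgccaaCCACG
Creld2 (chr15:88819520-88819538, minus strand): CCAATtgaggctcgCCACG
Syvn1 (chr19:6046532-6046550, plus strand): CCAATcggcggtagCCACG
A related element, ERSE-II (ATTGGNCCACG), was in Dnajb11 alone among the ER genes and in 0.0444% of all genes, and the core of the unfolded protein response element (TGACGTGG) was in Sec24d alone and in 0.714% of all genes. All 3 elements contain CCACG or its reverse complement.

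The heat shock element, searched on both strands as 3 units in GAANNTTCNNGAA, was in 4 of 15 heat shock genes with a window (26.7%), in 0 of 19 ER genes and in 0.662% of all genes. Hspd1 and Hspe1, the mitochondrial chaperonin and its partner, lie head to head on chromosome 1 and share the same overlapping pair of matches. The sites are shown with the 3 units in capitals.
Hspd1 and Hspe1, first (chr1:55088064-55088076, plus strand): GAAccTTCcgGAA
Hspd1 and Hspe1, second (chr1:55088059-55088071, minus strand): GAAggTTCtaGAA
Hsph1 (chr5:149636288-149636300, plus strand): GAActTTCcaGAA
Chordc1, upstream of 2 further overlapping matches (chr9:18292263-18292275, plus strand): GAAcgTTCggGAA
A match is a description of the letters, and a window without one says nothing of the factor.

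For the ER genes Hspa5 and Calr, the 250 bases upstream of the gene start are given on the strand of the gene. The ERSE is in capitals (in Calr it reads on the opposite strand). The same stretch is given for the inducible HSP70 pair Hspa1a and Hspa1b on chromosome 17, whose upstream bases differ at 3 of 250 positions (98.8% identical) and have no match to these motifs. The pair are near-identical copies, so reads may have been split between them in the counting, and the separate values of each are uncertain.
Hspa5 (chr2:34771840-34772089, plus strand): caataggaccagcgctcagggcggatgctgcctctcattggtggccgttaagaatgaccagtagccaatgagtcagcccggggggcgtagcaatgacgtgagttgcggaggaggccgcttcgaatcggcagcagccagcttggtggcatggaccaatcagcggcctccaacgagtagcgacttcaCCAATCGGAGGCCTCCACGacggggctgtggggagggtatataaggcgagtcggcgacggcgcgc
Calr (chr8:84846932-84847181, minus strand): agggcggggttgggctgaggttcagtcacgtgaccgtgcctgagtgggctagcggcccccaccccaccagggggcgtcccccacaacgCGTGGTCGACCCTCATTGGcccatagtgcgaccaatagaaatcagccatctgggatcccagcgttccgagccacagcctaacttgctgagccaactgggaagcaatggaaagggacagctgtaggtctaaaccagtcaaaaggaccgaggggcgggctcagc
Hspa1a (chr17:34972157-34972406, minus strand): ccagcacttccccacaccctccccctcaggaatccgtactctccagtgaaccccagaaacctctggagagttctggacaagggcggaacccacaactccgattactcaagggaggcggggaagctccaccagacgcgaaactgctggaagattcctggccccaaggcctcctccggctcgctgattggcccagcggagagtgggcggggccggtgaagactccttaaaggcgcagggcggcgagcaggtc
Hspa1b (chr17:34959239-34959488, minus strand): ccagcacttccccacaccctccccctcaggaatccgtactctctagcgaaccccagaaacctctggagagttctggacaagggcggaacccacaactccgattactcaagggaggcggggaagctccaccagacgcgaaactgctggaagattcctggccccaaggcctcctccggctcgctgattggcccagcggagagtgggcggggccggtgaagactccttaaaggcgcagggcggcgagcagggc

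Levels below are CPM after scaling by edgeR's TMM factors, given in replicate order, and fold changes are log2 values ± standard error from edgeR's quasi-likelihood test with Benjamini-Hochberg adjustment over all genes tested (10285 in experiment 1, 9491 in experiment 2). A gene is said to have risen or fallen where its adjusted p was under 0.05. TMM assumes that most genes do not differ between libraries. Scaling by library totals in place of TMM moved the median log2 change of all genes by −0.93 for LPS over vehicle, −0.2 for DI over vehicle, 0.15 for DI plus LPS over LPS, −0.59 for DI plus LPS over DI and 0.35 for the interaction, and list medians are therefore also given relative to the median of all genes.

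**Figure D1:**
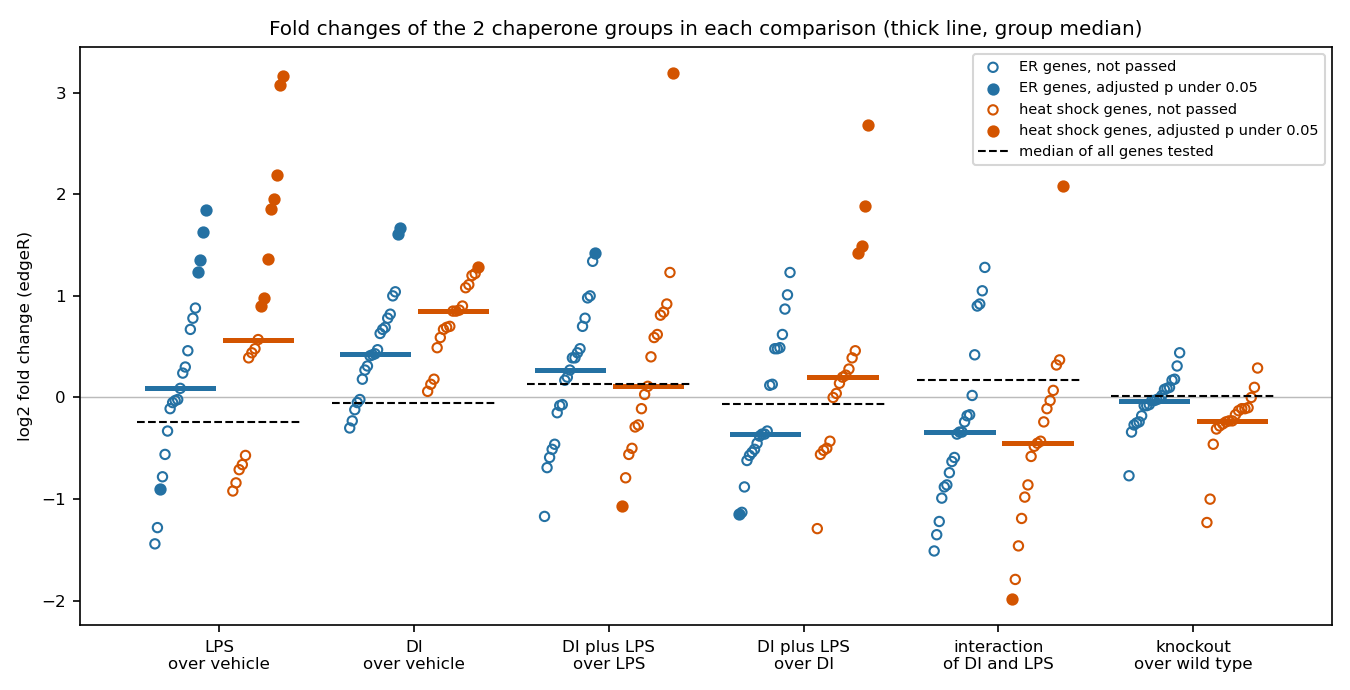
Log2 fold change (edgeR, vertical axis) of each ER gene (blue, 21) and heat shock gene (orange, 17) in the 6 comparisons, with filled points for adjusted p under 0.05, a thick line at the list median and a dashed line at the median of all genes tested. The heat shock median lies above the all-gene line for LPS over vehicle (0.57 against −0.24) and DI over vehicle (0.85 against −0.05); by library totals the LPS median is −0.38 against −1.17.

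The comparison of LPS with vehicle asks how the stimulus itself changed the chaperones. Under LPS, 8 heat shock genes rose (Hspa1b, Hspa1a, Dnaja1, Cacybp, Stip1, Hspa4l, Hsp90ab1 and Hspa8), and 4 ER genes rose (Dnajb11, Hspa5, Syvn1 and Edem1) while 1 fell (Calr). Of all genes tested, 34.3% changed, 16% higher and 18.4% lower. The heat shock list thus had 8 of 17 higher and 0 lower (by edgeR, 2 were lower at an unadjusted p under 0.05, and 1 was lower by DESeq2), and the ER list 4 of 21 higher and 1 lower. In 4 ER genes and 7 heat shock genes every LPS library lay above every vehicle library, which held for 16.7% of all genes, and in 4 and 3 every LPS library lay below, which held for 27.3% (44% in either direction). By library totals the calls changed to 3 heat shock genes higher (Dnaja1, Hspa1a and Hspa1b) and 5 lower (Dnajb4, Hspe1, Bag3, Hsph1 and Hspd1), and to 0 ER genes higher and 9 lower, when 853 of all genes were higher and 4950 lower (1641 and 1888 with TMM). Relative to the median of all genes, the ER median was 0.33 higher with TMM and 0.33 higher by library totals, and the heat shock median 0.81 and 0.79 higher.

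Among ER genes, Hspa5, the HSP70 of the ER lumen that also holds the stress sensors inactive, was at 553, 582 and 480 CPM in vehicle and 1950, 1684 and 1369 CPM with LPS. Every LPS library lay above every vehicle library, a rise of 1.63 ± 0.29 (3.09-fold, adjusted p = 0.00032). Dnajb11, an ER J-domain partner of BiP, was at 69.5, 73 and 66.6 CPM in vehicle and 97.7, 167 and 498 with LPS, a rise of 1.84 ± 0.44 (adjusted p = 0.0035). The groups were apart, but the LPS libraries were far from each other, and without LPS replicate 3 the rise was 0.95 (adjusted p = 0.012).

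Syvn1, the ubiquitin ligase of ER-associated degradation, was at 30.9, 21.4 and 24.3 CPM in vehicle and 88.1, 87.1 and 12.7 with LPS, a rise of 1.35 ± 0.45 (adjusted p = 0.026). LPS replicate 3 lay below all vehicle libraries, and without it the rise was 1.8 (adjusted p = 5.2e-05). Syvn1 missed the threshold without LPS replicate 1, LPS replicate 2, vehicle replicate 2 or vehicle replicate 3 (adjusted p 0.081 to 0.11). Edem1, which extracts misfolded glycoproteins for degradation, was at 159, 352 and 160 CPM in vehicle and 303, 434 and 846 with LPS, a rise of 1.23 ± 0.40 (adjusted p = 0.022) with overlapping groups. Without LPS replicate 3 it was 0.75 (adjusted p = 0.079), and it also missed the threshold without vehicle replicate 1 or 3 (adjusted p = 0.1 for each).

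Calr, calreticulin, the calcium-binding lectin chaperone of glycoproteins, was at 696, 722 and 890 CPM in vehicle and 469, 509 and 252 with LPS. It fell by 0.90 ± 0.34 on the log2 scale (adjusted p = 0.045), with every LPS library below every vehicle library. The adjusted p lay just under the threshold and passed it only without DI replicate 2 or LPS replicate 2. It was 0.051 to 0.14 in the other 10 fits that left out 1 library. Without LPS replicate 3 Calr had −0.62 (adjusted p = 0.11). Its partner Canx (calnexin) was at 197, 160 and 187 CPM in vehicle and 228, 180 and 92.6 with LPS, −0.11 ± 0.31 (adjusted p = 0.83). By library totals Canx was called lower (−1.02, adjusted p = 0.024).

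Other core ER genes did not pass. Hsp90b1, the HSP90 of the ER, changed by 0.30 ± 0.32 (adjusted p = 0.5), but was called lower by library totals (−0.71, adjusted p = 0.048). Pdia4, a disulfide isomerase, had −0.02 ± 0.40 (adjusted p = 0.98), and was likewise called lower by library totals (−1.04, adjusted p = 0.022). Xbp1, the transcription factor spliced by IRE1, had 0.67 ± 0.33 (adjusted p = 0.13), −0.31 by library totals. Gene counts do not separate spliced from unspliced Xbp1. Dnajb9, the BiP cochaperone that restrains IRE1, was at 19.6, 11.9 and 15.7 CPM in vehicle and 2.65, 11.8 and 1.82 with LPS, −1.44 ± 0.57 (adjusted p = 0.059). Each LPS library of Dnajb9 lay below each vehicle library, and without LPS replicate 2 the change was −2.66 (adjusted p = 0.0033). Dnajb9 was also called lower by DESeq2 (−1.55, adjusted p = 0.018), with no filter on low counts (0.038) and by library totals (−2.36, adjusted p = 0.0033). It was not called with the replicate block (0.088).

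Among heat shock genes, Hspa1a, a stress-induced cytosolic HSP70, was at 1.07, 2.38 and 1.76 CPM in vehicle and 10.9, 16.8 and 14.5 with LPS, a rise of 3.07 ± 0.55 (8.42-fold, adjusted p = 0.0003). All LPS libraries lay above all vehicle libraries, on 29 counts in vehicle and 71 with LPS. Hspa1b, its copy, was at 1.55, 4.76 and 3.68 CPM in vehicle and 37.8, 36.5 and 3.63 with LPS, a rise of 3.16 ± 0.66 (adjusted p = 0.0013). LPS replicate 3, with 2 counts of Hspa1b, lay within the vehicle range, and the other LPS libraries lay far above it.

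Dnaja1, an HSP40 that drives the ATP cycle of cytosolic HSP70, was at 245, 321 and 292 CPM in vehicle and 1546, 1497 and 881 with LPS. The groups did not overlap, and the rise was 2.19 ± 0.30 (4.58-fold, adjusted p = 1.6e-05). Hspa8, the constitutive HSP70, was at 973, 992 and 921 CPM in vehicle and 2100, 2108 and 1164 with LPS, 0.90 ± 0.32 higher (adjusted p = 0.04), but −0.02 by library totals. Hsp90ab1, the constitutive HSP90, was at 2246, 4104 and 2730 CPM in vehicle and 4505, 5232 and 8216 with LPS, 0.98 ± 0.34 higher (adjusted p = 0.034), but −0.03 by library totals.

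The groups of both constitutive genes did not overlap with TMM, yet their calls were the least firm of the list. Hspa8 passed only without DI replicate 2, DI replicate 3 or LPS replicate 3, with adjusted p 0.051 to 0.13 in the other 9 fits that left out 1 library. Hsp90ab1 missed the threshold without LPS replicate 3 (0.72, adjusted p = 0.066), without vehicle replicate 1 or 3 (adjusted p 0.14 and 0.11) and without DI plus LPS replicate 1 (adjusted p = 0.05). Hsp90aa1, the inducible HSP90, was at 755, 1181 and 847 CPM in vehicle and 1373, 1426 and 1340 with LPS. Its groups did not overlap, but its change of 0.57 ± 0.29 did not pass (adjusted p = 0.14) and was −0.38 by library totals.

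Cacybp, Hspa4l and Stip1 rose as well. Cacybp, a binding protein of calcyclin and of a ubiquitin ligase that works with HSP90, was at 52.6, 30.9 and 29.4 CPM in vehicle and 180, 161 and 92.6 with LPS, 1.95 ± 0.44 (adjusted p = 0.0024), with separate groups. Hspa4l, an HSP110 nucleotide exchange factor, was at 15.1, 14.6 and 17.4 CPM in vehicle and 36.1, 53.9 and 29.1 with LPS, 1.36 ± 0.35 (adjusted p = 0.0056), with separate groups. Stip1 (HOP), which joins HSP70 to HSP90, was at 12.7, 5.44 and 13.3 CPM in vehicle and 47.4, 54.5 and 7.26 with LPS, 1.85 ± 0.50 (adjusted p = 0.0081), and LPS replicate 3 lay within the vehicle range. Dnajb1 (0.48 ± 0.54, adjusted p = 0.53, and −0.42 by library totals) and Hsph1 (−0.71 ± 0.54, adjusted p = 0.33) did not pass.

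Without LPS replicate 3, 4 ER genes were higher (Hspa5, Syvn1, Dnajb11 and Pdia6) and 0 lower, and 8 heat shock genes were higher. Among the latter, Chordc1, which was at 0 in that library, was gained and Hsp90ab1 was lost. The changes were then 1.79 for Hspa5, 2.45 for Dnaja1, 3.09 for Hspa1a, 3.61 for Hspa1b, 1.16 for Hspa8, 2.20 for Cacybp, 1.53 for Hspa4l and 2.26 for Stip1, and each passed. The ER count fell to 3 without vehicle replicate 1 and to 2 without vehicle replicate 3. In a fit of only the LPS and vehicle libraries, Hspa5 and Dnajb11 passed in the ER list and Dnaja1, Cacybp, Hspa1a, Hspa1b and Hspa4l in the heat shock list.

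**Figure D2:**
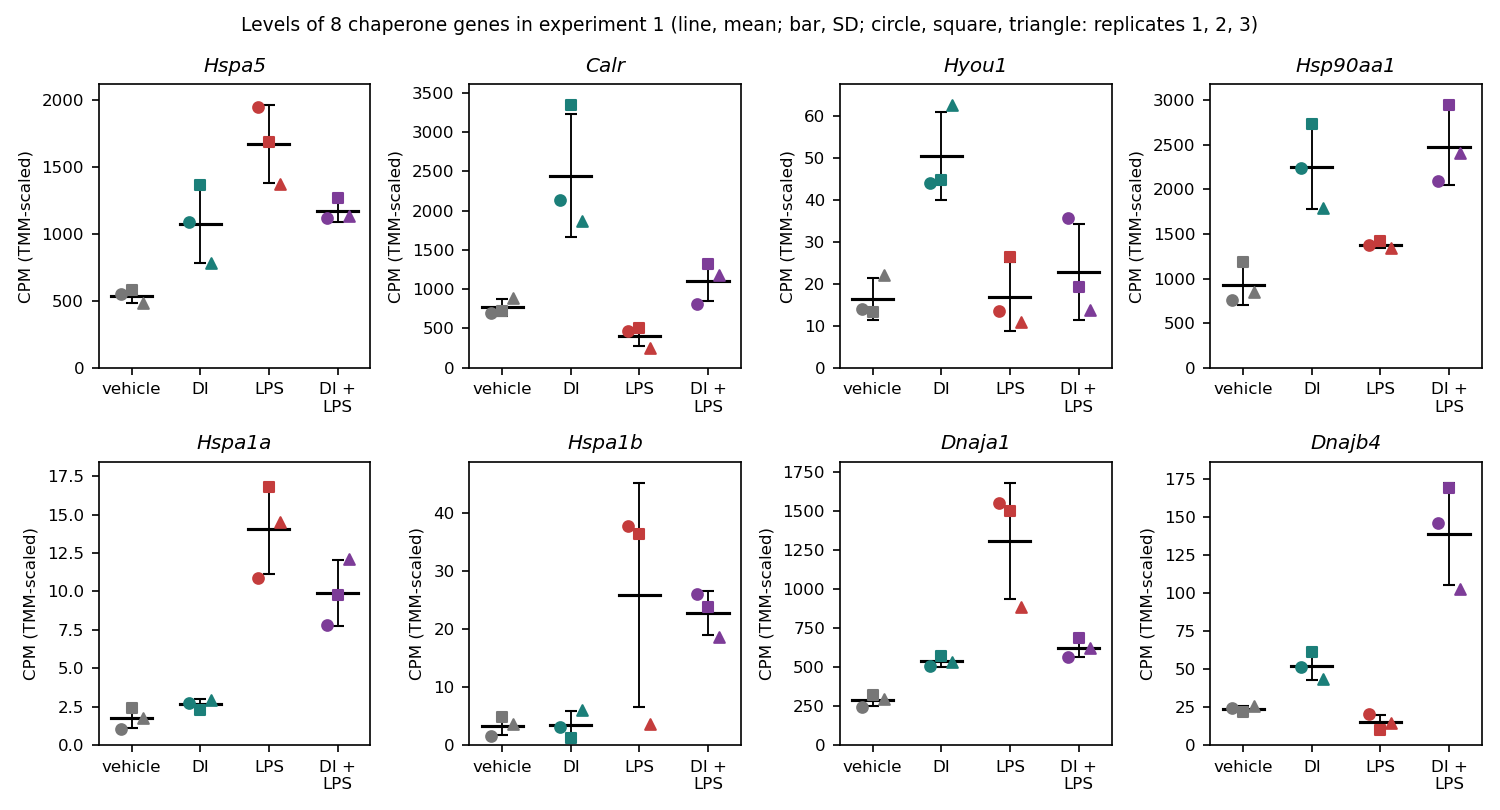
Level of 8 chaperone genes (CPM after TMM scaling, linear axes from 0) in the 12 libraries of experiment 1, with a line at the group mean and bars of 1 SD. Hspa5 and Dnaja1 are highest with LPS (1369 to 1950 and 881 to 1546 CPM), Calr with DI (1863 to 3339 CPM) and Dnajb4 with DI plus LPS (103 to 169 CPM).

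Genes around these chaperones that were not members moved in both directions under LPS. Of 12 sensors and regulators of the unfolded protein response, 2 rose and 5 fell. Ppp1r15b and Ppp1r15a, the subunits that return eIF2alpha to its active state, rose by 3.11 ± 0.30 (adjusted p = 2.8e-07) and 2.25 ± 0.36 (adjusted p = 0.0001). Ern1, which encodes IRE1, was at 32.1, 33.6 and 41.4 CPM in vehicle and 1.66, 2.25 and 0 with LPS, −4.42 ± 0.49 (adjusted p = 1.6e-06). Eif2ak3, which encodes PERK, had 159 counts in vehicle and 0 in all LPS libraries (adjusted p = 0.00028), at least 14.5-fold lower when the LPS group is set to a floor of 3 counts in all. Ddit3, which encodes the stress factor CHOP, also fell, by 1.70 ± 0.38 (adjusted p = 0.002).

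In the ER degradation list, 1 of 15 rose and 1 fell, the latter Herpud1 (−3.26 ± 0.70, adjusted p = 0.0016), a ligase partner induced in ER stress. In oxidative folding and glycoprotein quality control, 2 of 16 rose (Ero1a, the oxidase of disulfide isomerases, by 1.06 ± 0.33, adjusted p = 0.018, and Erp44) and 1 fell (Erp29, −1.92 ± 0.34, adjusted p = 0.00031). In the list of translocon, signal peptidase and COPII genes, 2 of 21 rose (Sec24b, a cargo adaptor, by 2.67 ± 0.32, adjusted p = 4.2e-06, and Ssr3) and 0 fell (0 lower also at an unadjusted p under 0.05 and by DESeq2). In the list of heat shock factors, HSP70 and J-domain partners, 3 of 18 rose, led by Dnaja2 (2.81 ± 0.34, adjusted p = 4.4e-06), and 1 fell (Hspa2). In the list of HSP90 cochaperones, small heat shock proteins and chaperonin subunits, 3 of 16 rose (Cct8, Ptges3 and Cct3) and 0 fell (0 lower also at an unadjusted p under 0.05 and by DESeq2).

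Cct8, a chaperonin subunit, was at 163, 289 and 182 CPM in vehicle and 390, 348 and 1769 with LPS. LPS replicate 3 stood far above the other libraries, and the rise of 1.97 (adjusted p = 0.0054) was 0.84 without it (adjusted p = 0.036). Dnajc7, a J-domain cochaperone, likewise went from 1.39 to 0.78 without that library. Of the 21 calls in the 6 lists, 18 were kept without LPS replicate 3 (Erp44, Ube2j1 and Hspa2 were lost), and 13 held whichever library was left out. Cct3 missed the threshold in 11 of 12 such fits, Ero1a in 3 (without LPS replicate 1 or vehicle replicate 2 or 3), and Ptges3 in 2 (without LPS replicate 1 or 2). Without LPS replicate 1 Herpud1 was at −3.85. By library totals 12 of the 21 calls were kept, and Erp44 and Ube2j1 turned.

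The comparison of DI with vehicle asks what the itaconate ester did to unstimulated cells. Calr and Hyou1 rose in the ER list and Hsp90aa1 in the heat shock list, and no member fell. Of all genes tested 2.84% changed, 1.33% higher and 1.51% lower, so the members called were 2 of 21 and 1 of 17. All 17 heat shock genes and 16 of 21 ER genes had a log2 change above 0 (14 and 15 by library totals), with medians of 0.85 and 0.43 against −0.05 for all genes (0.65, 0.24 and −0.25 by library totals). In 9 ER genes and 9 heat shock genes every DI library lay above every vehicle library, which held for 14.6% of all genes, and in 0 members every DI library lay below, which held for 16% of all genes (30.6% in either direction). No member was lower by DESeq2 or at an unadjusted p under 0.05.

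Calr was at 696, 722 and 890 CPM in vehicle and 2133, 3339 and 1863 with DI. The groups were far apart, with a rise of 1.67 ± 0.34 (3.17-fold, adjusted p = 0.0095). Hyou1, the HSP110 of the ER and exchange factor of BiP, was at 14, 13.2 and 22.2 CPM in vehicle and 44.1, 44.9 and 62.6 with DI. Every DI library lay above every vehicle library, with a rise of 1.61 ± 0.40 (3.05-fold, adjusted p = 0.037). Hsp90aa1 was at 755, 1181 and 847 CPM in vehicle and 2233, 2729 and 1785 with DI, again without overlap, a rise of 1.28 ± 0.30 (2.42-fold, adjusted p = 0.023).

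Several members were apart between the groups without passing. Hspa5 was at 1086, 1365 and 781 CPM with DI, 1.00 ± 0.29 (adjusted p = 0.077), and Hsp90b1 went from 807, 1170 and 978 CPM to 1497, 2565 and 2027, 1.04 ± 0.32 (adjusted p = 0.11). Dnajb4, an HSP40, went from 24.6, 21.7 and 25.6 CPM to 51.2, 61.4 and 43.2, 1.11 ± 0.32 (adjusted p = 0.072), and Hspa4l to 37.4, 31.5 and 41.5, 1.22 ± 0.33 (adjusted p = 0.06). The stress-induced pair showed no such gap. Hspa1a was at 2.71, 2.31 and 2.94 CPM with DI (0.69 ± 0.53, adjusted p = 0.63) and Hspa1b at 3.18, 1.16 and 6.08 CPM (0.18 ± 0.65, adjusted p = 0.94, and −6.4e-05 by library totals). Values for the other core genes were 0.41 ± 0.39 for Pdia4 (adjusted p = 0.73), 0.31 ± 0.32 for Xbp1 (adjusted p = 0.75), −0.12 ± 0.49 for Dnajb9 (adjusted p = 0.95), 0.59 ± 0.32 for Hspa8 (adjusted p = 0.46), 1.2 ± 0.51 for Hsph1 (adjusted p = 0.28) and 0.06 ± 0.51 for Dnajb1 (adjusted p = 0.98, and −0.14 by library totals). Of these, Hspa8 was at 1202, 2099 and 1034 CPM with DI, and its groups did not overlap.

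The number of members called with DI depended on libraries of other groups, which share the estimate of the spread. Without LPS replicate 3, 5 ER genes (Calr, Hyou1, Hspa5, Hsp90b1 and Canx) and 6 heat shock genes (Hsp90aa1, Hspa4l, Dnaja1, Hsp90ab1, Dnajb4 and Hspd1) were higher, with 454 of all genes higher and 349 lower. Without LPS replicate 1 or 2, 2 heat shock genes passed. Calr missed the threshold without DI replicate 2 (adjusted p = 0.069), vehicle replicate 1 (0.066) or vehicle replicate 2 (0.05). Hyou1 missed it without any 1 of the 3 DI libraries, any 1 of the 3 vehicle libraries or DI plus LPS replicate 2 (adjusted p 0.055 to 0.2). Hsp90aa1 missed it without DI replicate 1 or 2 or vehicle replicate 1 or 3 (adjusted p 0.078 to 0.15). By library totals Calr alone passed (adjusted p = 0.039), with 72 of all genes higher and 194 lower (137 and 155 with TMM).

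The 8 ER genes with an ERSE had a median log2 change with DI of 0.75 (−0.02 to 1.67), and the 11 with a window but no exact match 0.31 (−0.3 to 0.78). This split was looked at after the values were known and is given as a description. Hyou1, which was called with DI, and Manf have no window and are in neither set. With LPS the medians were 0.10 and −0.02. They were 0.42 and −0.08 for DI plus LPS over LPS, and −0.4 and −0.33 for DI plus LPS over DI. The interaction had −0.29 and −0.59, and the knockout −0.02 and −0.03.

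The lists were also summed as a share of all counts in a library, which amounts to scaling by library totals. The ER genes together made up 0.499, 0.533 and 0.523% in vehicle and 0.828, 1.09 and 0.806% with DI, with no overlap. With LPS the share was 0.406, 0.402 and 0.331%, and with both 0.407, 0.489 and 0.467%, each library below every vehicle library. These lower shares depend on the scaling. TMM factors were 1.321 to 1.47 in vehicle, 0.5761 to 0.8029 with LPS and 0.7953 to 0.8557 with both. For LPS over vehicle the ER median was 0.09 with TMM, against −0.84 by library totals. The heat shock genes together made up 0.691, 0.939 and 0.758% in vehicle, 1.38, 1.67 and 1.14% with DI, 0.83, 0.852 and 0.692% with LPS and 0.914, 1.03 and 0.979% with both. The DI libraries were above the vehicle libraries, and the LPS libraries lay within the vehicle range. These sums are dominated by Hsp90ab1, Hsp90b1, Hspa8, Hspa5, Calr and Hsp90aa1, and the summed macrophage markers moved the other way with DI.

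Outside the members, 1 gene of the 6 pathway lists passed with DI. Vcp, the ATPase that pulls proteins out of the ER for degradation, was at 521, 532 and 622 CPM in vehicle and 1057, 1422 and 1022 with DI, without overlap, a rise of 1.06 ± 0.28 (adjusted p = 0.045). It missed the threshold by library totals, and in 9 of the 12 fits that left out 1 library (adjusted p 0.057 to 0.21). By edgeR 0 of 12 sensors and regulators, 0 of 16 oxidative folding genes, 0 of 21 translocon and COPII genes, 0 of 18 heat shock factors and J-domain genes and 0 of 16 HSP90 cochaperone and chaperonin genes passed. At an unadjusted p under 0.05 these counts were 1, 0, 2, 5 and 1, all higher, and by DESeq2 they were 0, 0, 0, 2 and 0. Without LPS replicate 3 they were 1 (Atf4), 0, 1 (Sec63), 4 (Bag1, Dnajc2, Hspa4 and St13) and 1 (Cct6a), all higher.

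The comparison of DI plus LPS with LPS asks what the ester changed in stimulated cells. It uses the LPS libraries that also stand in LPS over vehicle. Dnajb4 and Calr rose and Dnaja1 fell. Of all genes 15.9% changed, 8.38% higher and 7.53% lower, against 1 of 21 ER genes and 2 of 17 heat shock genes. Every DI plus LPS library lay above every LPS library in 1 ER gene and 4 heat shock genes, against 18.9% of all genes, and below in 1 and 1, against 10.7% (29.6% in either direction). No ER gene was lower by edgeR, while 1 was at an unadjusted p under 0.05 and 1 by DESeq2. The ER median was 0.27 and the heat shock median 0.11, against 0.13 for all genes. By library totals 901 of all genes were higher and 527 lower (862 and 774 with TMM).

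Dnajb4 was at 20.2, 10.1 and 14.5 CPM with LPS and 146, 169 and 103 with DI plus LPS. The groups lay far apart, a rise of 3.19 ± 0.36 (9.11-fold, adjusted p = 1.4e-05), and this call held in every alternative run. Calr was at 469, 509 and 252 CPM with LPS and 815, 1321 and 1178 with both, a rise of 1.42 ± 0.34 (2.68-fold, adjusted p = 0.0083), also without overlap. Dnaja1 went from 1546, 1497 and 881 CPM to 566, 683 and 622 and fell by 1.07 ± 0.29 on the log2 scale (adjusted p = 0.016), with separate groups. It missed the threshold by library totals (adjusted p = 0.06), and without LPS replicate 1 or 2 or DI plus LPS replicate 1 or 3 (adjusted p 0.064 to 0.1). The changes without LPS replicate 3 were 3.13 for Dnajb4, 1.16 for Calr and −1.31 for Dnaja1, and each passed.

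A pair of further heat shock genes was close to the threshold. Hsp90aa1 was at 2089, 2939 and 2404 CPM with both agents, 0.84 ± 0.29 (adjusted p = 0.059), and Bag3, a cochaperone that releases HSP70 clients, went from 26.8, 14.6 and 3.63 CPM to 46.7, 34.6 and 38.2, 1.23 ± 0.41 (adjusted p = 0.051). Both had separate groups. Hsp90aa1 passed by DESeq2 (adjusted p = 0.02), by library totals (0.028) and with the replicate block (0.049). Bag3 passed by DESeq2 (0.022) and with no filter on low counts (0.03). Hspa5, at 1117, 1271 and 1133 CPM with both agents, lay below every LPS library, but its −0.51 ± 0.29 did not pass (adjusted p = 0.25).

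The other core genes had −0.46 ± 0.40 for Pdia4 (adjusted p = 0.48), −0.69 ± 0.33 for Xbp1 (0.17), 0.78 ± 0.58 for Dnajb9 (0.4), 0.17 ± 0.32 for Hsp90b1 (0.77), −0.50 ± 0.49 for Hspa1a (0.54), −0.29 ± 0.59 for Hspa1b (0.78), −0.27 ± 0.32 for Hspa8 (0.62), 0.62 ± 0.54 for Hsph1 (0.48) and 0.03 ± 0.54 for Dnajb1 (0.98), where the value in brackets is the adjusted p. Their groups overlapped. Without LPS replicate 3, Stip1 also fell (−1.2, adjusted p = 0.028), and without LPS replicate 1 the ER list had 5 calls. Without LPS replicate 2, Dnajb9 passed (2.02, adjusted p = 0.039), and the ER list then had 2 calls and the heat shock list 1. The heat shock list also had 1 call without DI plus LPS replicate 1 or 3.

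In the surrounding pathways, 3 of 12 sensors and regulators rose and 1 fell. Ern1 was at 11, 11.9 and 11.2 CPM with both agents, 2.77 ± 0.50 higher than with LPS alone (adjusted p = 0.0012), and Eif2ak3 had 26 counts against 0, at least 4-fold higher (adjusted p = 0.015). Mbtps2, a protease that activates ATF6, rose by 1.35 ± 0.41 (adjusted p = 0.032), and Ppp1r15b went from 453, 445 and 556 CPM to 123, 111 and 155, a fall of −1.90 ± 0.28 (adjusted p = 0.0002). In the degradation list Ufd1 and Vcp rose (2 of 15), by 1.23 ± 0.30 (adjusted p = 0.01) and 0.90 ± 0.28 (adjusted p = 0.034). Hsf2, a heat shock factor, was at 22.5, 29.2 and 10.9 CPM with LPS and 56.3, 93.7 and 101 with both, without overlap, 1.92 ± 0.36 (adjusted p = 0.0014). In its list Dnajc2 also rose and Dnajc7 fell, so 2 of 18 were higher and 1 lower. Cct2 rose (1 of 16 in the cochaperone and chaperonin list), Sec24b fell (1 of 21), and 0 of 16 oxidative folding genes passed by edgeR (1 at an unadjusted p under 0.05, 0 by DESeq2). Of these 11 calls, 10 were kept without LPS replicate 3. Dnajc7 was lost, its change going from −1.41 to −0.79 (adjusted p = 0.06). Vcp, Cct2, Eif2ak3 and Mbtps2 each missed the threshold when some other library was left out (adjusted p 0.052 to 0.14), and all 11 were kept by library totals.

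The comparison of DI plus LPS with DI asks what LPS did in cells that had received the ester. It shares the DI libraries with DI over vehicle. Hspa1b, Hspa1a, Cacybp and Dnajb4 rose and Calr fell. Of all genes 18.9% changed, 11.4% higher and 7.56% lower, against 4 of 17 heat shock genes, all higher, and 1 of 21 ER genes. Every DI plus LPS library lay above every DI library in 6 ER genes and 4 heat shock genes and below in 6 and 1, against 22.3% of all genes in each direction and 44.6% in either. No ER gene was higher by edgeR (3 at an unadjusted p under 0.05, 0 by DESeq2), and no heat shock gene lower (1 and 1). The ER median was −0.36 and the heat shock median 0.20 against −0.06 for all genes, but the heat shock median was −0.38 by library totals, where the all-gene median was −0.65. By library totals 709 of all genes were higher and 2027 lower, and by DESeq2 1212 and 1395 (1170 and 778 with TMM). By totals the ER list had 0 genes higher and 9 lower, and the heat shock list 1 higher (Hspa1b) and 1 lower (Hsph1).

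Hspa1a went from 2.71, 2.31 and 2.94 CPM with DI to 7.84, 9.8 and 12.1 with both, and Hspa1b from 3.18, 1.16 and 6.08 to 26.1, 23.9 and 18.6. Neither gene's groups overlapped, and the rises were 1.88 ± 0.49 (3.69-fold, adjusted p = 0.011) and 2.68 ± 0.62 (6.41-fold, adjusted p = 0.0045). Beside them, LPS over vehicle gave 3.07 ± 0.55 for Hspa1a and 3.16 ± 0.66 for Hspa1b. Hspa1a missed the threshold without DI replicate 2 (adjusted p = 0.052) or DI plus LPS replicate 3 (0.055).

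Dnajb4 went from 51.2, 61.4 and 43.2 CPM to 146, 169 and 103, with separate groups, a rise of 1.42 ± 0.31 (2.68-fold, adjusted p = 0.003), against −0.66 ± 0.35 (adjusted p = 0.15) for LPS over vehicle. Cacybp went from 59.4, 46.1 and 99.6 CPM to 201, 296 and 81.7, with overlap, a rise of 1.49 ± 0.43 (adjusted p = 0.02), lost without DI replicate 1 or 2 or DI plus LPS replicate 1 or 2 (adjusted p 0.068 to 0.14). Calr went from 2133, 3339 and 1863 CPM to 815, 1321 and 1178 and fell by 1.15 ± 0.34 (adjusted p = 0.021), with separate groups. It missed the threshold without DI replicate 2 (adjusted p = 0.13), or DI plus LPS replicate 1 (0.13) or 3 (0.068).

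Hyou1 went from 44.1, 44.9 and 62.6 CPM to 35.7, 19.3 and 13.7, −1.13 ± 0.40 (adjusted p = 0.057), with separate groups, and Hsph1, a cytosolic HSP110, had −1.29 ± 0.51 (adjusted p = 0.087) with overlap. Without LPS replicate 3, 3 ER genes were higher (Syvn1, Sec24d and Edem1) and 3 lower (Calr, Hyou1 and Pdia4), and Hsph1 fell beside the 4 heat shock genes that rose. Without LPS replicate 1 or 2 the ER list had 2 calls, and without DI replicate 2 the heat shock list had 2. The remaining core genes had 0.12 ± 0.29 for Hspa5 (adjusted p = 0.82), −0.57 ± 0.32 for Hsp90b1 (0.25), −0.88 ± 0.39 for Pdia4 (0.14), −0.33 ± 0.32 for Xbp1 (0.55), −0.54 ± 0.50 for Dnajb9 (0.52), 0.04 ± 0.32 for Hspa8 (0.95), 0.14 ± 0.29 for Hsp90aa1 (0.81) and 0.46 ± 0.52 for Dnajb1 (0.61), with the adjusted p in brackets. Hspa5, Hspa8, Hsp90aa1 and Dnajb1 were at −0.46, −0.53, −0.45 and −0.13 by library totals.

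In the surrounding lists, Ppp1r15a rose by 2.64 ± 0.36 (adjusted p = 2.8e-05), while Ern1 fell by 1.62 ± 0.35 (adjusted p = 0.0025) and Ddit3 by 1.61 ± 0.35 (adjusted p = 0.0026), so 1 of 12 sensors and regulators was higher and 2 lower. Ero1a rose and Erp29 fell (1 each of 16), Nploc4 rose (1 of 15), and Ssr3 and Sec24b rose (2 of 21). Dnaja2 (1.73 ± 0.32, adjusted p = 0.00073) and Hsf2 (1.69 ± 0.34, adjusted p = 0.0013) rose in their list of 18, and Ptges3, Cct3 and Cct4 in theirs of 16. Of these 13 calls, 8 held whichever library was left out, and Ero1a, Nploc4, Cct3, Cct4 and Ptges3 did not. By library totals 6 of the 13 were kept.

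**Figure D3:**
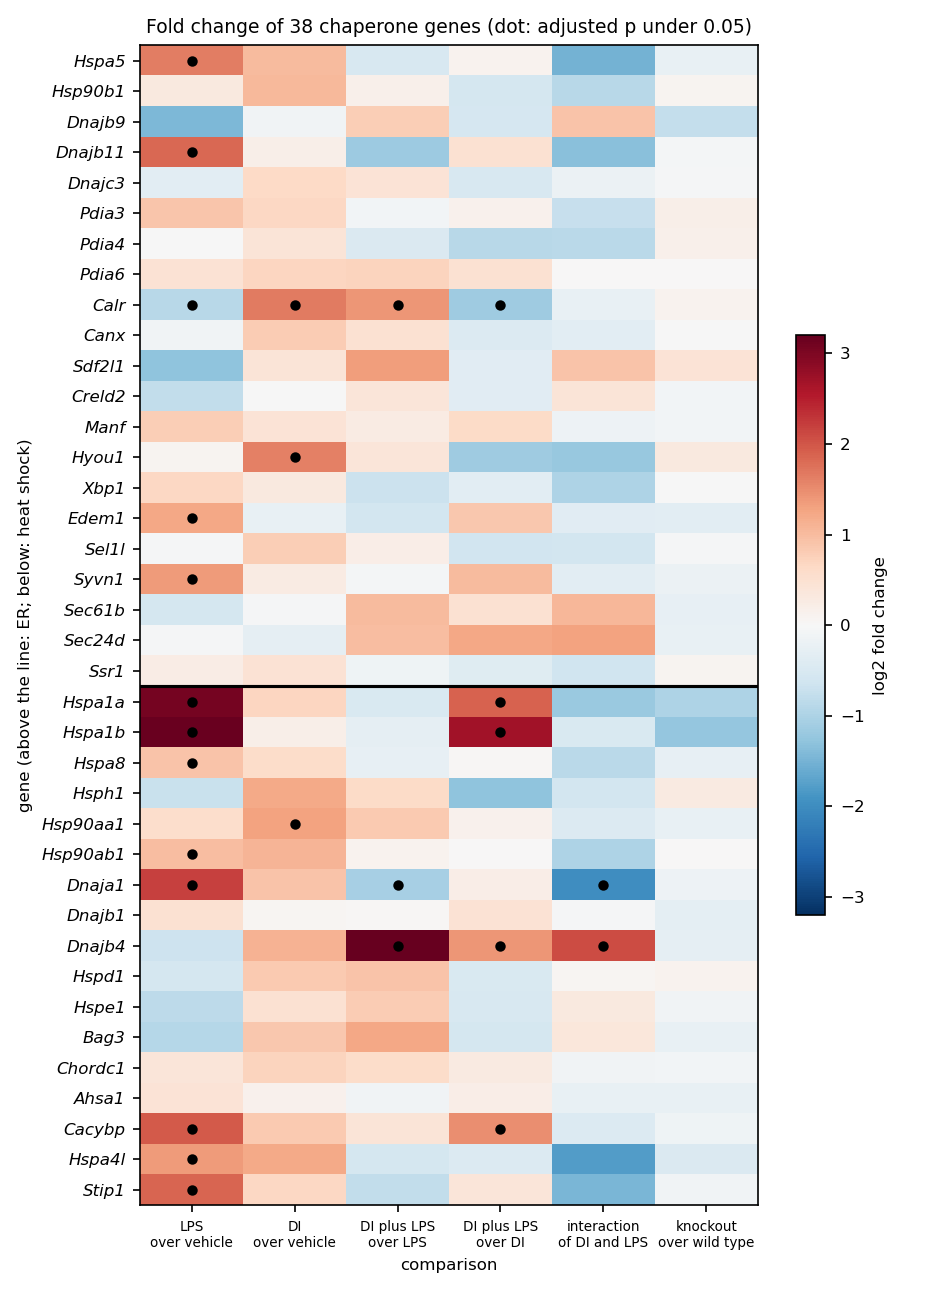
Log2 fold change (colour scale, red higher and blue lower) of the 38 members tested, with ER genes above the black line and heat shock genes below, in the 6 comparisons, with a dot for adjusted p under 0.05. Calr carries a dot in the 4 pairwise comparisons of experiment 1, and the knockout column has none.

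The difference between the DI effect with LPS and the DI effect without it (the interaction) was tested in the same fit. Dnaja1 had −1.98 ± 0.40 (adjusted p = 0.012) and Dnajb4 2.08 ± 0.47 (adjusted p = 0.02). Of all genes 2.91% passed, 1.39% higher and 1.52% lower, against 2 of 17 heat shock genes and 0 of 21 ER genes. In the ER list 3 were lower at an unadjusted p under 0.05 by edgeR and 1 passed by DESeq2. The medians were −0.34 for ER genes and −0.45 for heat shock genes against 0.17 for all genes, with 15 of 21 and 13 of 17 below 0. By library totals the medians were −0.01 and −0.12 against 0.52, with 11 of 21 and 10 of 17 below 0, and 215 of all genes were higher and 86 lower (143 and 156 with TMM).

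Dnaja1 was lowest in vehicle, about equal with DI and with both agents (505 to 572 and 566 to 683 CPM), and highest with LPS alone. DI thus went with 0.90 ± 0.28 without LPS (adjusted p = 0.11) and −1.07 ± 0.29 with it. Dnajb4 was lowest with LPS, and DI went with 1.11 ± 0.32 without LPS and 3.19 ± 0.36 with it. Hspa5 had an interaction of −1.51 ± 0.41 (adjusted p = 0.052), and −1.68 without LPS replicate 3 (adjusted p = 0.0072). Hspa4l had −1.79 ± 0.48 (adjusted p = 0.051), and −1.97 without that library (adjusted p = 0.0079), and Stip1 passed without it too (−1.88, adjusted p = 0.025). Dnaja1 and Dnajb4 had −2.24 and 2.0 without it. The ER list also had 1 call without LPS replicate 1.

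The Dnaja1 interaction missed the threshold by library totals (adjusted p = 0.057) and without DI plus LPS replicate 1 (adjusted p = 0.065). The Dnajb4 interaction missed it without DI replicate 1 or 3, DI plus LPS replicate 1 or 2, or vehicle replicate 1 or 3 (adjusted p 0.058 to 0.076). For the other core genes the interaction was −0.88 ± 0.45 for Hsp90b1 (adjusted p = 0.32), −0.24 ± 0.47 for Calr (0.85), −0.86 ± 0.56 for Pdia4 (0.45), −0.99 ± 0.46 for Xbp1 (0.26), 0.90 ± 0.76 for Dnajb9 (0.58), −1.19 ± 0.72 for Hspa1a (0.41), −0.48 ± 0.87 for Hspa1b (0.84), −0.86 ± 0.46 for Hspa8 (0.33), −0.43 ± 0.41 for Hsp90aa1 (0.64), −0.58 ± 0.73 for Hsph1 (0.74) and −0.03 ± 0.74 for Dnajb1 (0.99), with the adjusted p in brackets. Of the sensors and regulators, Ern1 (2.80 ± 0.61, adjusted p = 0.018) and Eif2ak3 (adjusted p = 0.046) were higher and Ppp1r15b lower (−2.33 ± 0.39, adjusted p = 0.0029). All 3 were kept without LPS replicate 3, but Eif2ak3 missed the threshold in 11 of the 12 fits that left out 1 library and Ern1 in 3 (without DI replicate 2, DI plus LPS replicate 1 or vehicle replicate 3). In the 5 other pathway lists 0 genes passed by edgeR, with 0 to 3 per list at an unadjusted p under 0.05 and 0 to 2 by DESeq2.

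Experiment 2 compared cells that cannot make itaconate with wild-type cells after 24 h of LPS and interferon gamma. The targeted gene, Acod1, was at 28.4, 14.8 and 31.4 CPM in the knockout and 4131, 4665 and 4225 in wild type, a change of −7.43 ± 0.32 (adjusted p = 4.8e-07). Without regard to replicate numbers, 0 of 21 ER genes and 0 of 17 heat shock genes passed by edgeR, as 0.0632% of all genes did (1 gene or 0.0105% higher, and 5 or 0.0527% lower). At an unadjusted p under 0.05, 1 ER gene and 3 heat shock genes were lower and none higher, and DESeq2 called 0 and 2. Same-numbered libraries of the 2 genotypes deviated together, so the fit with the replicate number as a block is given beside this one. That pairing rests on these same data, since the labels name no shared source, and the blocked fit leaves fewer residual degrees of freedom. With the block, 6.26% of all genes passed (2.9% higher and 3.36% lower), and 4 members were lower, Hspa1b, Hspa1a, Hspa4l and Dnajb9.

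Hspa1a was at 64, 61.5 and 64.7 CPM in wild type and 27, 40.5 and 27.6 in the knockout. Every knockout library was lower than every wild-type library, with −1.0 ± 0.21 (adjusted p = 0.18) without the block and −1.03 ± 0.15 with it (adjusted p = 9.5e-06). Hspa1b was at 86.2, 65.7 and 90.7 CPM in wild type and 34.7, 24.6 and 43.7 in the knockout, again without overlap, −1.23 ± 0.24 (adjusted p = 0.14) and −1.24 ± 0.14 with the block (adjusted p = 2.5e-08). DESeq2 called both genes without the block.

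Hspa4l was at 296, 355 and 267 CPM in wild type and 234, 243 and 192 in the knockout, lower without overlap, −0.46 ± 0.19 (adjusted p = 0.67) and −0.45 ± 0.10 with the block (adjusted p = 0.0021). Dnajb9 was at 28.2, 28.4 and 26.7 CPM in wild type and 16, 15.6 and 17.1 in the knockout, with tight groups and no overlap, −0.77 ± 0.20 (adjusted p = 0.34) and −0.77 ± 0.19 with the block (adjusted p = 0.0092).

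The heat shock median was −0.23 against 0.01 for all genes (−0.19 by library totals), and the ER median −0.03 (0.01 by library totals). In all 3 same-numbered pairs the knockout was lower for 11 of 17 heat shock genes and 5 of 21 ER genes, against 20.1% of all genes, and higher for 0 heat shock genes and 3 ER genes, against 19.7%. Groups did not overlap, with the knockout lower, for 4 heat shock genes and 2 ER genes, against 7.24% of all genes, and with the knockout higher for 0 members, against 6.12% (13.4% in either direction).

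Core members without a call in either fit included Hspa5, at 706, 725 and 1041 CPM in the knockout and 846, 859 and 1227 in wild type. It was lower in each pair, but its groups overlapped, −0.25 ± 0.22 (adjusted p = 0.94). Hsp90aa1 was at 3339, 4040 and 3386 CPM in the knockout and 4779, 4141 and 3834 in wild type, −0.24 ± 0.19 (adjusted p = 0.93). The others had 0.08 ± 0.23 for Hsp90b1 (adjusted p = 0.98), 0.10 ± 0.23 for Calr (0.98), 0.17 ± 0.23 for Pdia4 (0.96), −0.01 ± 0.20 for Xbp1 (1), −0.26 ± 0.24 for Hspa8 (0.95), 0.29 ± 0.25 for Hsph1 (0.94) and −0.31 ± 0.23 for Dnajb1 (0.92), with the adjusted p in brackets. By edgeR 0 genes passed in each of the 6 surrounding lists, with 0 to 3 per list at an unadjusted p under 0.05 and 0 by DESeq2.

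**Figure D4:**
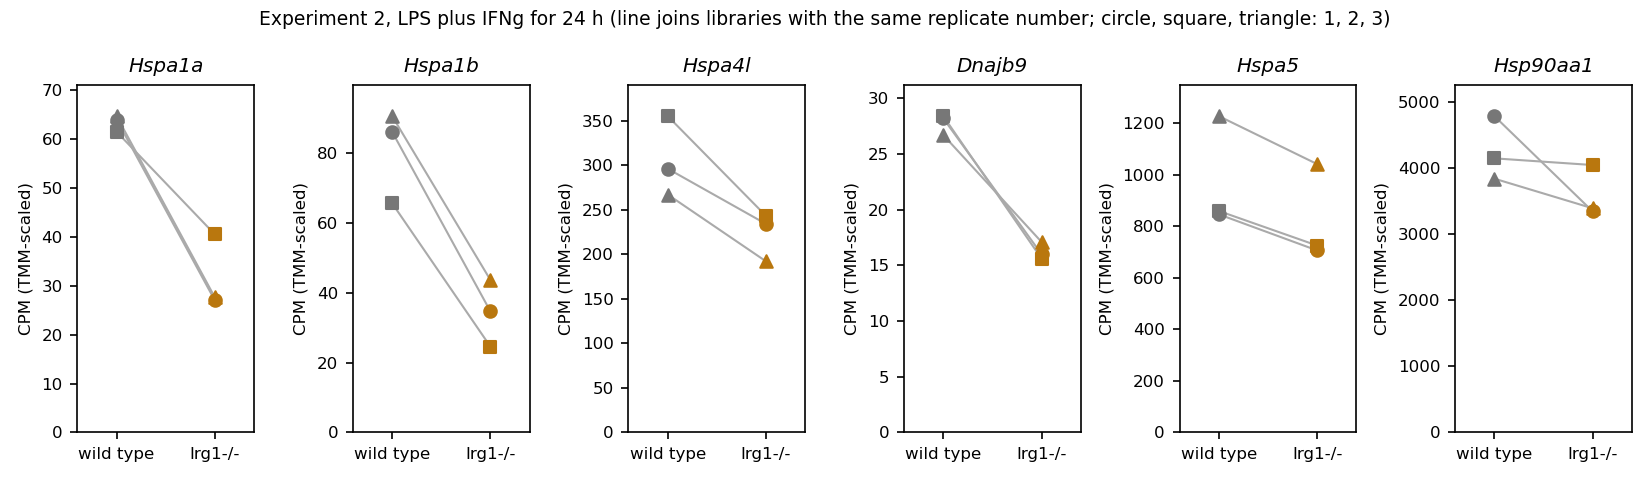
Level of 6 chaperone genes (CPM after TMM scaling, linear axes from 0) in the 6 libraries of experiment 2, with a line between wild-type and Irg1-/- libraries of the same replicate number. Hspa1a, Hspa1b, Hspa4l and Dnajb9 are lower in each knockout library than in each wild-type library, and Hspa5 and Hsp90aa1 overlap.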

How the data were processed

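Polyadenylated RNA was sequenced from its 3′ end in 18 libraries. Per the labels' protocols, cDNA was primed with barcoded oligo-dT, pooled, and amplified over 12 PCR cycles into strand-specific libraries. The submitters' processing notes name STAR, HTSeq, DESeq2 and mm10, without versions. Annotation and counting options are not given in the sources used here, and the authors deposited whole-number counts per Entrez gene in 2 tables, 1 for each experiment. As the protocols mention no molecular identifiers, PCR copies are part of the counts, and the floor of 3 counts covers counting error only. Whether counting used the strand is unknown, so reads of a gene and of one overlapping or antisense to it cannot be told apart.

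Genes were kept by filterByExpr (minimum count 10) and tested with edgeR 4.0.16 (R 4.3.3; TMM, quasi-likelihood F test, Benjamini-Hochberg adjustment, threshold 0.05), with all 4 groups of experiment 1 in 1 fit (8 residual degrees of freedom) and experiment 2 in another (4). CPM were TMM-scaled, except marker sums, which used library totals. Alternatives were DESeq2 1.42.0, library totals, no filter, the replicate number as a block, only the compared groups, and each library left out. Deviations from group means of same-numbered libraries correlated at 0.374, 0.354 and 0.455 in experiment 2, so its numbers were taken as pairs. That rests on the data, since the labels name no shared source.

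Genes with values in the text were all members called (up to 12 per list), 12 core members in every comparison, up to 4 called genes of lowest p per surrounding list, and Acod1. Ddit3 was added to these for LPS over vehicle. Members near the threshold, those named for changed calls under an alternative, and the ERSE split were chosen after their values were seen. The members and lists were chosen with earlier results of these data known. Promoter windows came from RefSeq (GRCm38.p6).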

Additional observations from a re-analysis of the deposited data

Results flagged for a closer look

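The effect of DI on Dnaja1 and Dnajb4 differed between cells with and without LPS, by edgeR's test of the interaction with Benjamini-Hochberg adjustment. For Dnaja1 the interaction was −1.98 ± 0.40 on the log2 scale (adjusted p = 0.012, and 0.057 by library totals), with all 3 DI libraries above all vehicle libraries and all 3 DI plus LPS libraries below all LPS libraries. For Dnajb4 it was 2.08 ± 0.47 (adjusted p = 0.02), with all 3 libraries above those without DI, both with and without LPS. The Dnajb4 interaction missed the threshold in 6 of the 12 fits that left out 1 library (adjusted p 0.058 to 0.076). The Dnaja1 interaction missed it in 1 of them (adjusted p = 0.065).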

How the results depend on the processing

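Values are counts of members called, in either direction, unless a log2 change is named. Those given for an alternative are the counts that moved by over 1.5 times, and a count not named moved by at most that much or not at all. The main counts for ER and heat shock genes were 5 and 8 for LPS over vehicle, 2 and 1 for DI over vehicle, 1 and 2 for DI plus LPS over LPS, 1 and 4 for DI plus LPS over DI, 0 and 2 for the interaction, and 0 and 0 for the knockout. With DESeq2, all 26 member calls were kept, and counts moved to 4 and 5 (DI over vehicle), 2 and 4 (DI plus LPS over LPS), 3 ER genes (DI plus LPS over DI), 1 ER gene (interaction) and 2 heat shock genes (knockout). With no filter on low counts all 26 were kept, with 3 heat shock genes for DI over vehicle, 2 ER genes for DI plus LPS over LPS, 3 ER genes for DI plus LPS over DI and 2 heat shock genes for the knockout. By library totals 10 of the 26 kept their call, 14 lost it and 2 turned (Hspa8 and Hsp90ab1, LPS over vehicle). The counts moved to 9 ER genes (LPS over vehicle), 1 and 0 (DI over vehicle), 9 and 2 (DI plus LPS over DI) and 1 heat shock gene (interaction). The heat shock calls for LPS over vehicle kept their number but became 3 higher and 5 lower, against 8 and 0 with TMM. In fits of only the compared groups, they moved to 2 and 5 (LPS over vehicle), 5 and 7 (DI over vehicle), 1 heat shock gene (DI plus LPS over LPS) and 6 ER genes (DI plus LPS over DI). With the replicate block 25 of the 26 were kept (Hyou1 with DI was lost, adjusted p = 0.061), and counts moved to 1 ER gene for DI over vehicle, 1 ER gene for the interaction, and 1 ER and 3 heat shock genes for the knockout. In experiment 1 same-numbered libraries did not deviate together in every pair (correlations −0.141 to 0.231), so the numbers were not taken as pairs there.

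Among the 12 core members and the members called in a comparison, those whose log2 change turned sign are listed here. In the main fit they were small or not called, apart from Hspa8 (−0.02) and Hsp90ab1 (−0.03) by library totals. Hsp90b1 for LPS over vehicle was not called in the main fit but was called lower by library totals (edgeR, adjusted p = 0.048). Over all members, those above 0 for LPS over vehicle went from 11 of 21 ER and 12 of 17 heat shock genes to 4 and 6 by totals. In this comparison the changes listed became −0.71 for Hsp90b1, −0.31 for Xbp1, −0.38 for Hsp90aa1 and −0.42 for Dnajb1, and in the fit of only these groups 0.08 for Pdia4. For DI over vehicle by totals they were −6.4e-05 for Hspa1b and −0.14 for Dnajb1. For DI plus LPS over LPS, Dnajb1 was −0.03 by DESeq2. For DI plus LPS over DI, DESeq2 and totals gave −0.02 and −0.46 for Hspa5, −0.10 and −0.53 for Hspa8, and −0.0024 and −0.45 for Hsp90aa1, and totals −0.13 for Dnajb1. For the interaction, totals gave 0.09 for Calr and 0.29 for Dnajb1, and the replicate block 0.06 for Dnajb1. For the knockout, totals gave 0.03 for Xbp1. Apart from the construction of each alternative, the cause was not tested.

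Leaving out each library in turn gave 2 to 6 ER and 6 to 9 heat shock calls for LPS over vehicle, 0 to 5 and 0 to 6 for DI over vehicle, 1 to 5 and 1 to 3 for DI plus LPS over LPS, 0 to 6 and 2 to 5 for DI plus LPS over DI, 0 to 1 and 0 to 4 for the interaction, and 0 to 0 for both lists in the knockout. Log2 changes that turned sign in some of these fits ranged from −0.48 to 0.33 for Pdia4 (LPS over vehicle); −0.27 to 0.08 for Dnajb9, −0.49 to 0.57 for Hspa1b and −0.05 to 0.15 for Dnajb1 (DI over vehicle); −0.75 to 0.02 for Pdia4, −0.72 to 0.03 for Hspa1b and −0.38 to 0.5 for Dnajb1 (DI plus LPS over LPS); −0.07 to 0.33 for Hspa5, −0.16 to 0.41 for Hspa8 and −0.0055 to 0.3 for Hsp90aa1 (DI plus LPS over DI). For the interaction they ranged from −0.53 to 0.05 for Calr, −0.95 to 0.21 for Hspa1b, −1.14 to 0.03 for Hsph1 and −0.46 to 0.42 for Dnajb1, and for the knockout from −0.08 to 0.25 for Hsp90b1, −0.05 to 0.34 for Pdia4, −0.06 to 0.35 for Calr and −0.16 to 0.07 for Xbp1.

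Over all genes, the higher and lower calls were 303 and 351 by DESeq2 for DI over vehicle (137 and 155), 424 and 392 for the interaction (143 and 156) and 13 and 23 for the knockout (1 and 5), the main counts in brackets. With no filter they were 236 and 222, 236 and 261, and 15 and 25. Fits of only the compared groups gave 1250 and 858 for LPS over vehicle, 557 and 456 for DI over vehicle, 273 and 380 for DI plus LPS over LPS and 1657 and 1539 for DI plus LPS over DI. By library totals the knockout had 3 and 6. Leaving out 1 library gave 61 and 79 to 454 and 349 for DI over vehicle. LPS replicate 3 limits the depth most: 5 members tested had 0 counts there.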
